A study of Mus musculus with 10 samples.

Results

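The Hoxd cluster of the mouse is a row of 9 homeobox genes on the plus strand of chromosome 2. Sorted by their 5′-most annotated starts they are Hoxd13, Hoxd12, Hoxd11, Hoxd10, Hoxd9, Hoxd8, Hoxd3, Hoxd4 and Hoxd1. The annotated Hoxd4 body lies inside the annotated Hoxd3 body, so the order of Hoxd3 and Hoxd4 depends on the start used. The members were taken as this named list, 9 of the 22350 protein-coding genes annotated on the 20 chromosomes that hold peaks, and each was studied over its gene body plus 10 kb on either side. Joined together, the 9 windows span 117 kb (chr2:74496367-74613200, mm9), and the distance from the Hoxd13 start to the Hoxd1 end is 96.8 kb. Polycomb proteins were mapped by ChIP-seq on formaldehyde-fixed chromatin from J1 mouse embryonic stem cells (ESCs) and from neural stem cells (NSCs). The ESCs grew on fibroblast feeders, which were removed at harvest, in medium with serum and leukemia inhibitory factor. The NSCs were made in culture from the same J1 line and kept on gelatin with EGF and FGF, so both cell types come from 1 line and neither received a treatment. ESCs were profiled for Ring1b, Cbx2, Ezh2 and H3K27me3, and NSCs for Ring1b and H3K27me3, with 1 library for each. There are therefore no replicates, the differences between lists below have no replicate check, and no test was possible. The identity of the cells could not be checked against marker genes, since a list of peaks carries no expression level.

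Hox genes encode transcription factors that set position along the body axis, and within a cluster their order on the chromosome follows the order of their expression from head to tail. The members at the Hoxd13 end pattern the trunk end, limbs and genitalia, and those at the Hoxd1 end act further forward in the embryo. Polycomb group proteins keep the clusters silent where their genes are not used. Ring1b and Cbx2 belong to the PRC1 complex, in which Ring1b is the ubiquitin ligase and Cbx2 carries a chromodomain that can bind methylated histone H3. Ezh2 is the methyltransferase of the PRC2 complex and places H3K27me3. In mammals both complexes are found at unmethylated, CpG-rich DNA.

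The deposited lists give the position of each peak and nothing on its height. The authors compared tag counts with input in windows of 1 kb placed every 200 bp and joined neighbouring enriched windows, so peak edges fall on a 200 bp grid and the narrowest peak is 1000 bp wide. The lists held from 1033 peaks (ESC Cbx2) to 2335 peaks (ESC Ring1b), with median widths from 1400 to 2200 bp. The number of tags behind a list is unknown, so a missing peak means only that no window passed the threshold set for that list. The size parameters behind the threshold were chosen by manual inspection of the calls, and their part in the differences between lists was not tested.

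**Figure D1:**
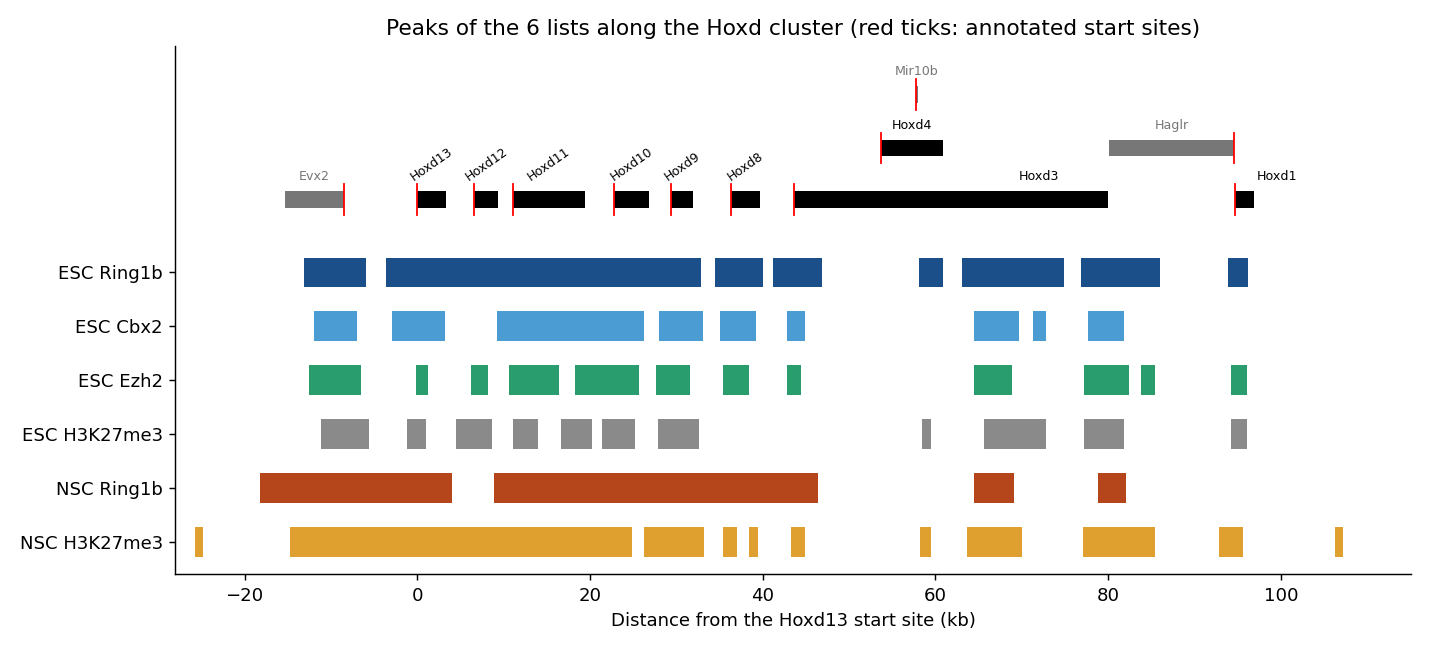
Peaks of the 6 lists (coloured bars, 1 row per list) against the distance in kb from the Hoxd13 start site, below the annotated bodies of the members (black) and of neighbouring genes (grey), with red ticks at the start sites. All 6 lists leave a stretch of 11200 bp around the Hoxd4 start site uncovered, and NSC Ring1b has 4 peaks of which 1 is 37600 bp wide.

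The DNA in front of the start sites is shown for 4 members whose start sites lay in fewer lists and for Hoxd10, which stands for those in all 6, as the 250 bases upstream of the annotated start on the plus strand of mm9. Capitals mark CpG (CG, which reads the same on both strands). Hoxd12 had no NSC Ring1b or ESC Cbx2 peak at its start site, Hoxd8 and Hoxd3 were outside H3K27me3 peaks in ESCs and inside them in NSCs, and Hoxd4 was in no peak of any list.
Hoxd10 (chr2:74528897-74529146): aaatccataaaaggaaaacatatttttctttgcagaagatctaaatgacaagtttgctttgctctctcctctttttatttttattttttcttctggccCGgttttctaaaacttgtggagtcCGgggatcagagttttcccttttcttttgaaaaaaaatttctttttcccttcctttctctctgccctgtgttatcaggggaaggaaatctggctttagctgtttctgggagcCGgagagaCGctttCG
Hoxd12 (chr2:74512736-74512985): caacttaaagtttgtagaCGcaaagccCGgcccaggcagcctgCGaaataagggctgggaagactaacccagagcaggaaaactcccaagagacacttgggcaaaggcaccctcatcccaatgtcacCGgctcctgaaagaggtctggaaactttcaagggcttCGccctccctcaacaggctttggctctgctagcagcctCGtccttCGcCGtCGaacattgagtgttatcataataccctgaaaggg
Hoxd8 (chr2:74542422-74542671): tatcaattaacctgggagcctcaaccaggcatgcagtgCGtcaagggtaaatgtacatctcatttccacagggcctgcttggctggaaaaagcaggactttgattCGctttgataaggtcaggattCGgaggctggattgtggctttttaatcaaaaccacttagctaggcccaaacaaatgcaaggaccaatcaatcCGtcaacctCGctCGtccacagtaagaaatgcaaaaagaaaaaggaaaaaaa
Hoxd3 (chr2:74549736-74549985): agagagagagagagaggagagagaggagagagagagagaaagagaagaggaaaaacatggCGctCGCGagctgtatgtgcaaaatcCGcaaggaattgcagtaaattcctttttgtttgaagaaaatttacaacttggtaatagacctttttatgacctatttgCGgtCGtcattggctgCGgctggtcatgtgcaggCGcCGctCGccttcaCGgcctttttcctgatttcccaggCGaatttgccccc
Hoxd4 (chr2:74559785-74560034): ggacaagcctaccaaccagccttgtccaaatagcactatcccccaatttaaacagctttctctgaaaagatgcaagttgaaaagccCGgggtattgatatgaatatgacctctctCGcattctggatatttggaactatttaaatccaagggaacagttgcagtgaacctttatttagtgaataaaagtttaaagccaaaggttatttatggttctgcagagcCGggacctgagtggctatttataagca
These stretches held 5 CpGs (Hoxd10), 9 (Hoxd12), 6 (Hoxd8), 12 (Hoxd3) and 3 (Hoxd4). Over the same stretch of all 22345 protein-coding promoters the median was 8, and 92.5% held at least 1. Hoxd13 (31 CpGs) and Hoxd1 (24) were the richest of the 9 members, Hoxd9 had 10 and Hoxd11 had 4. Counts so near to these annotated starts did not follow the number of lists. Hoxd10 and Hoxd11, which were in all 6, had fewer than the median promoter. The counts depend on the start used. RefSeq places a Hoxd10 start 801 bp and a Hoxd11 start 2931 bp further downstream. The nearest whole 200 bp steps upstream of these held 17 and 23 CpGs.

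Hoxd13, Hoxd11, Hoxd10 and Hoxd9 had their annotated start site inside a peak of every list, against 0.309% of all protein-coding genes. These are genes of the AbdB class, named after the fly gene that patterns the posterior abdomen. Hoxd12, of the same class, was in fewer lists. Hoxd8 and Hoxd3 were in peaks of 5 lists, Hoxd12 and Hoxd1 of 4, and Hoxd4 of 0, so that 8 of 9 were in a peak of some list (8.93% of all genes). By list, ESC Ring1b peaks held the start sites of 8 members (7.03% of all genes) and ESC Ezh2 peaks also held 8 (2.56%). ESC Cbx2 peaks held 6 (1.15%) and ESC H3K27me3 peaks held 6 (4.31%). In NSCs the count was 6 for Ring1b (1.74%) and 8 for H3K27me3 (1.77%). All 4 ESC lists together held 4 members, against 0.752% of all genes. The members are neighbours and a peak can span several of them, so these counts are not independent: the 8 start sites in ESC Ring1b peaks lay in 4 peaks, and the 6 in NSC Ring1b peaks lay in 2. A peak was present somewhere in the window of every member in 4 lists, with backgrounds of 11.5% (ESC Ring1b), 5.28% (ESC Ezh2), 9.97% (ESC H3K27me3) and 4.70% (NSC H3K27me3). Cbx2 peaks in ESCs (3.09%) and Ring1b peaks in NSCs (4.64%) reached the windows of 8 members and were missing from that of Hoxd1.

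In every list the share of a window under peaks was highest at 1 or more of the members from Hoxd13 to Hoxd9 and lowest at Hoxd1. Windows of neighbouring members share bases, so a smooth course along the cluster is partly built into the measure. For ESC Ring1b the covered share was 89.7% at Hoxd13, 100% at Hoxd12 and Hoxd11, 93.3% at Hoxd10 and 87.6% at Hoxd9, and then 76.0% at Hoxd8, 62.1% at Hoxd3, 50.7% at Hoxd4 and 17.0% at Hoxd1. Cbx2 ran at 57.1%, 71.8%, 72.5%, 84.2% and 71.3% from Hoxd13 to Hoxd9, and at 48.0% (Hoxd8), 30.5% (Hoxd3), 23.4% (Hoxd4) and 0% (Hoxd1). Ezh2 covered 40.7%, 45.5%, 60.5%, 68.4% and 58.9% of the windows from Hoxd13 to Hoxd9, followed by 36.9%, 28.0%, 19.0% and 11.6% from Hoxd8 to Hoxd1. Cbx2 and Ezh2 thus both had their highest value at Hoxd10, while H3K27me3 in ESCs was nearly level over the first members. It covered 56.2%, 53.4%, 57.1% and 56.0% from Hoxd13 to Hoxd10, 42.0% at Hoxd9, and 20.6%, 22.7%, 22.9% and 8.12% from Hoxd8 to Hoxd1. The low at Hoxd1 describes windows, and the 10 kb after Hoxd1 had no peak in the ESC lists or NSC Ring1b. In gene bodies alone, Hoxd1 was 72.3% under ESC Ring1b (Hoxd4 39.0%) and 63.0% under Ezh2 (Hoxd4 0%). The Hoxd1 body was 63.0% under ESC H3K27me3 (Hoxd8 0%) and 44.5% under NSC H3K27me3 (Hoxd4 16.7%). Under Cbx2 and NSC Ring1b the Hoxd1 and Hoxd4 bodies were both at 0%.

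**Figure D2:**
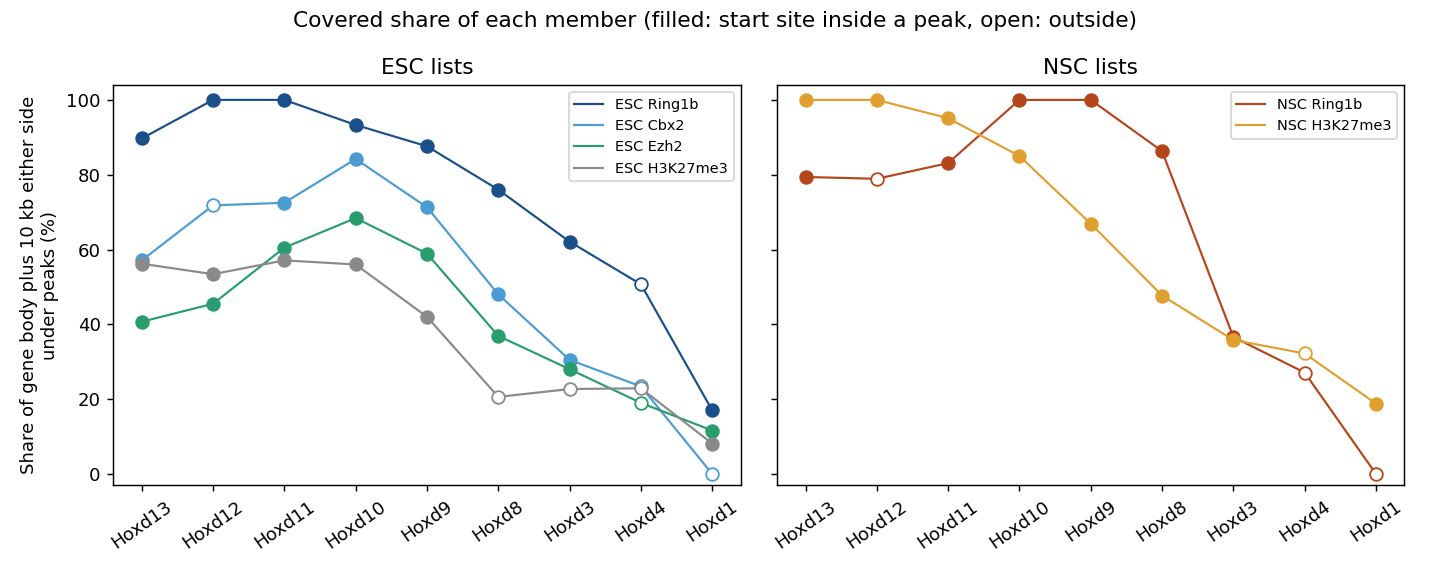
Share of each member's gene body plus 10 kb either side that lies under peaks (percent, vertical axis). Members are in the order of their 5′-most annotated starts (horizontal axis). ESC lists are on the left and NSC lists on the right. Filled points mark members whose start site is inside a peak and open points those outside, and each line ends at its lowest value at Hoxd1, between 0% and 18.8%.

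In NSCs the Ring1b share was 79.4% at Hoxd13, 78.9% at Hoxd12, 83.1% at Hoxd11, 100% at Hoxd10 and Hoxd9, and 86.3% at Hoxd8. It was then 36.6% at Hoxd3, 27.1% at Hoxd4 and 0% at Hoxd1. The highest NSC Ring1b values were thus at Hoxd10 and Hoxd9, and the lowest at the Hoxd1 end. H3K27me3 in NSCs covered the windows of Hoxd13 and Hoxd12 entirely (100%), and 95.1% at Hoxd11, 85.0% at Hoxd10, 66.9% at Hoxd9, 47.7% at Hoxd8, 35.8% at Hoxd3, 32.2% at Hoxd4 and 18.8% at Hoxd1. Among all 22350 genes, 3 had an NSC Ring1b share at least as high as Hoxd10 and Hoxd9 have, and 2 had an NSC H3K27me3 share of at least 100%, which are Hoxd13 and Hoxd12 themselves. For Cbx2, Hoxd10 alone reached 84.2%.

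The cluster held some of the widest peaks of each NSC list. The widest NSC H3K27me3 peak of 1647 was 39600 bp (chr2:74491601-74531200) and ran over the start sites of Hoxd13, Hoxd12, Hoxd11 and Hoxd10 and of the neighbour Evx2. In ESCs the same stretch was reached by 6 separate H3K27me3 peaks of 2200 to 5600 bp. The widest of the 1389 NSC Ring1b peaks was 37600 bp (chr2:74515201-74552800) and held the start sites of Hoxd11, Hoxd10, Hoxd9, Hoxd8 and Hoxd3. Another NSC Ring1b peak of 22200 bp, number 6 by width, covered Hoxd13. The widest ESC Ring1b peak in the cluster, 36400 bp (chr2:74502801-74539200), ranked 3 of 2335 and held 5 genes whole, from Hoxd13 to Hoxd9. A Cbx2 peak of 17000 bp over Hoxd11 and most of Hoxd10 ranked 2 of 1033. Ezh2 peaks were narrower, from 1400 to 7400 bp, and each of the 8 Ezh2 start sites had a separate peak. The widest ESC H3K27me3 peak in the cluster, 7200 bp, lay within the Hoxd3 body and ranked 49 of 2192.

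Over the joined windows, peaks covered 66.6% for ESC Ring1b (8 peaks), 41.5% for ESC Cbx2 (9), 35.6% for ESC Ezh2 (12) and 34.8% for ESC H3K27me3 (11). In NSCs they covered 50.9% for Ring1b (4) and 56.0% for H3K27me3 (10). The other ESC lists lay almost wholly within Ring1b: 100% of the Ezh2 bases, 99.6% of the Cbx2 bases and 99.0% of the H3K27me3 bases in the cluster were also under ESC Ring1b. Taken the other way, 62.0% of the ESC Ring1b bases were under Cbx2, 53.5% under Ezh2 and 51.7% under H3K27me3. ESC Ring1b is the largest list (7.90 Mb) and was set against its own input. Per the methods, Ring1b chromatin also had an extra EGS cross-linking step. The part of these in the nesting was not tested.

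Ring1b and H3K27me3, the targets profiled in both cell types, differed between ESCs and NSCs in opposite directions over the cluster. Ring1b covered 77.8 kb in ESCs and 59.4 kb in NSCs, a difference of -18400 bp. With peaks closer than 3 kb merged this difference was -27800 bp. H3K27me3 covered 40.6 kb in ESCs and 65.4 kb in NSCs, a difference of 24800 bp, which was 7926 bp when only gene bodies were counted. Of the ESC bases in the cluster, 69.7% of those under Ring1b and 91.1% of those under H3K27me3 were under peaks of the same target in NSCs. Over the whole lists these shares were 20.9% and 27.7%. The NSC to ESC ratio of covered bases was 0.764 for Ring1b and 1.61 for H3K27me3 in the cluster, and 0.456 and 0.798 over the whole lists.

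At the start sites, 6 of the 8 members in ESC Ring1b peaks were also in NSC Ring1b peaks (16.7% of all such genes), 2 were not (Hoxd12 and Hoxd1), and no member was in an NSC peak only (0.606% of genes outside ESC Ring1b peaks). For H3K27me3, all 6 members in ESC peaks were in NSC peaks as well (25.4% of such genes). Hoxd8 and Hoxd3, 2 of the 3 members outside ESC H3K27me3 peaks, were inside NSC peaks (0.701% of such genes). Both NSC peaks are 1600 bp wide, and with peaks of at least 2 kb alone neither start site was in one, which left 6 members in NSC H3K27me3 peaks. At the starts used here, the members therefore differed toward fewer Ring1b peaks and more H3K27me3 peaks in NSCs. The H3K27me3 counts depend on the setting. With peaks of at least 2 kb, 5 members were in ESC and 6 in NSC H3K27me3 peaks. Counting any annotated start, 8 were in ESC and 9 in NSC H3K27me3 peaks, and Hoxd3 was in both.

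The difference was not spread evenly. Split at Hoxd8, a division chosen after the values were seen, the stretch from the Hoxd13 start to the Hoxd8 end (6 members) was 96.0% under Ring1b in ESCs and 87.9% in NSCs. From the Hoxd3 start to the Hoxd1 end (3 members), Ring1b covered 55.3% in ESCs and 19.9% in NSCs. The first stretch accounted for -3200 bp and the second for -18800 bp. H3K27me3 went from 51.6% to 86.9% in the first stretch, a difference of 14000 bp, and from 27.4% to 37.6% in the second, a difference of 5415 bp. Most of the Ring1b difference thus lay beyond Hoxd8, and most of the H3K27me3 difference before Hoxd3. In the Hoxd3 body alone, Ring1b differed by -12400 bp. Between Hoxd3 and Hoxd1, Ring1b differed by -4836 bp and H3K27me3 by 5000 bp.

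**Figure D3:**
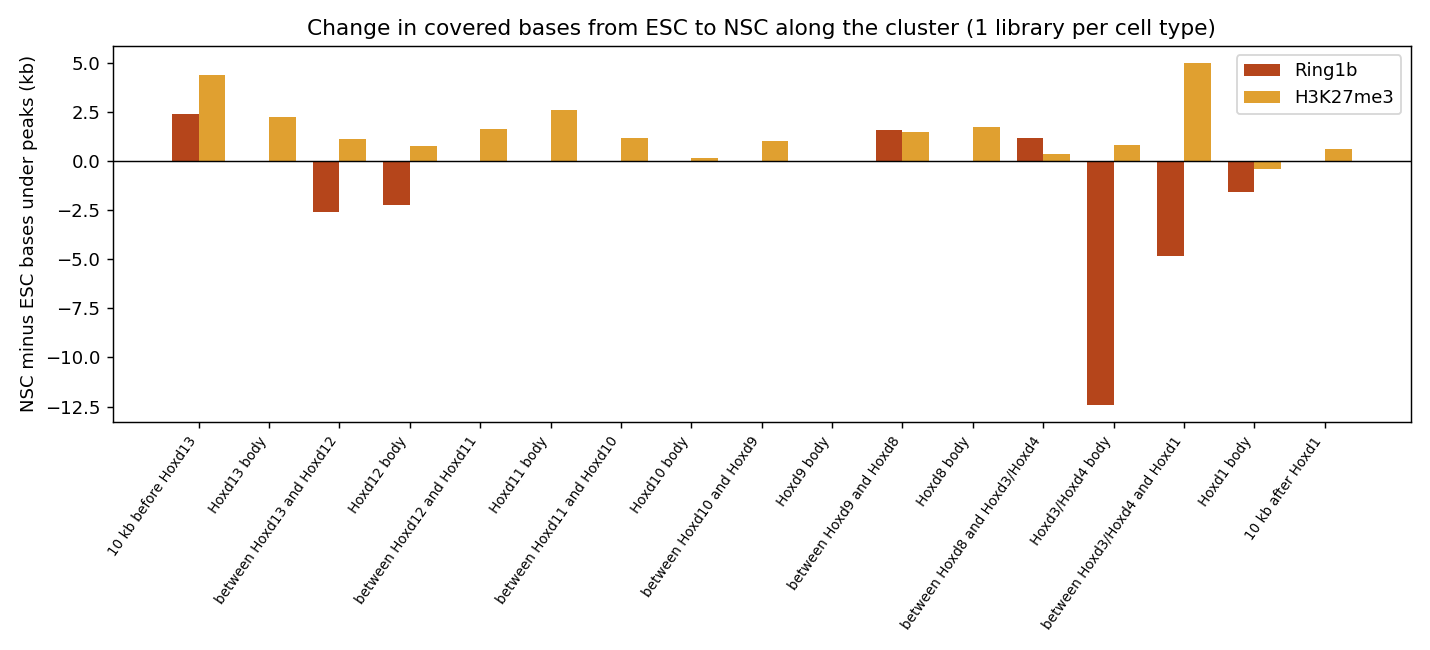
NSC minus ESC bases under peaks (kb, vertical axis) in gene bodies and in the stretches between them, in order along the cluster, for Ring1b (red) and H3K27me3 (yellow), 1 library per cell type. The lowest Ring1b bar is the Hoxd3/Hoxd4 body at -12400 bp, and the H3K27me3 bars are at or above 0 everywhere except the Hoxd1 body, at -400 bp.

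Hoxd12, a posterior member expressed in limb and genital buds, differed from both of its neighbours, Hoxd13 and Hoxd11. Its window was 100% under ESC Ring1b, but the NSC Ring1b list had a gap of 4800 bp (chr2:74510401-74515200) between its 22200 bp and 37600 bp peaks, and the Hoxd12 start lay 2215 bp from the nearest of them. Cbx2 in ESCs had a gap of 6000 bp at nearly the same place (chr2:74509601-74515600), 2615 bp from that start. The gaps held 6.71 (NSC Ring1b) and 5.77 (Cbx2) CpGs per 200 bp, above the 5.25 of the whole cluster. Steps under peaks of these lists held 6.75 (NSC Ring1b) and 8.07 (Cbx2). Ezh2 (2000 bp) and H3K27me3 (4200 bp) had peaks at the Hoxd12 start in ESCs, and the NSC H3K27me3 peak covered the gene body entirely. Only 20.3% of the Hoxd12 body was under NSC Ring1b. Across all genes, a start site in an ESC Ring1b peak was outside Cbx2 peaks in 84.2% of cases, and one in an NSC H3K27me3 peak was outside NSC Ring1b peaks in 64.6%. Among the members, 2 of 8 were in that state in each case, Hoxd12 and Hoxd1 both times.

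Hoxd8 and Hoxd3, the middle members, carried Ring1b, Cbx2 and Ezh2 peaks at their start sites in ESCs without an H3K27me3 peak. At Hoxd8 the ESC peaks were 5600 bp (Ring1b), 4200 bp (Cbx2) and 3000 bp (Ezh2) wide, and at Hoxd3 they were 5600, 2000 and 1600 bp. The nearest ESC H3K27me3 peak lay 3672 bp from the Hoxd8 start and 10986 bp from the Hoxd3 start, and was the same peak, at the edge of a gap of 25800 bp in that list (chr2:74539001-74564800) that holds both start sites. Ezh2 places this mark, and of all start sites in ESC Ezh2 peaks 21.9% were outside ESC H3K27me3 peaks. Among the 8 members with a start site in an ESC Ezh2 peak, only Hoxd8 and Hoxd3 were, a share near that background. In NSCs narrow H3K27me3 peaks of 1600 bp lay over both start sites, and a further one of 1000 bp over the Hoxd8 body. The median width of that list is 1600 bp. The start sites of Hoxd8 and Hoxd3 were also inside the widest NSC Ring1b peak. These are the 5′-most annotated starts, and the genes differed further in. ESC H3K27me3 peaks covered 0% of the Hoxd8 body and 30.1% of the Hoxd3 body. The Hoxd3 starts at 74574572, 74577676 and 74583731 were inside ESC H3K27me3 peaks.

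Hoxd4, a member expressed in the hindbrain and neck region, was in no peak at its 5′-most annotated start, position 74560035, which lies inside the annotated Hoxd3 body. The distance to the nearest peak ran from 4366 bp (ESC Ring1b) to 9235 bp (ESC Ezh2). It lay within 11200 bp (chr2:74553201-74564400) that no list covered, the longest such stretch in the joined windows. A second annotated Hoxd4 start, at position 74565131, was inside ESC Ring1b, ESC H3K27me3 and NSC H3K27me3 peaks, so the state of Hoxd4 depends on the transcript. Counting any annotated start, ESC Ring1b and NSC H3K27me3 peaks each reached all 9 members, and ESC H3K27me3 peaks reached 8. Hoxd3 has 7 annotated transcripts with 6 start sites, and 1 of them, at 74574572, was in peaks of all 6 lists. The others were in 2 to 5 lists.

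The uncovered stretch also holds the hairpin of the microRNA Mir10b (chr2:74564127-74564194), whose guide strand targets Hox transcripts among others. Its mature sequence, from RefSeq, is given with the seed (bases 2 to 8) in capitals.
mmu-miR-10b-5p: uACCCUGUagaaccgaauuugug
Mir10b lay just outside peaks of 3 lists, 274 bp from ESC Ring1b, 474 bp from NSC H3K27me3 and 674 bp from ESC H3K27me3. The other lists began 6674 bp away.

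Hoxd1, the most anterior member, stood apart at the far end, 94.7 kb from the Hoxd13 start. Its start site had ESC peaks of 2400 bp (Ring1b), 1800 bp (Ezh2) and 1800 bp (H3K27me3), no Cbx2 peak within 12837 bp and no NSC Ring1b peak within 12637 bp. The NSC H3K27me3 peak was 2800 bp wide. The start lies 84 bp from that of the long non-coding RNA Haglr, which is transcribed the other way and whose start was in and out of peaks of the same lists. The bases between these starts are shown because they separate a coding from a non-coding gene by far less than the width of the narrowest peak.
Between Haglr and Hoxd1 (chr2:74600954-74601036): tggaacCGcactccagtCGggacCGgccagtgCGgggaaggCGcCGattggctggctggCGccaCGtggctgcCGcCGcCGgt
These 83 bases held 11 CpGs.

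Steps of 200 bp along the cluster held more CpGs where more lists had a peak. The mean was 1.89 CpGs per 200 bp in the 161 steps under no peak, 2.54 under 1 list and 3.18 under 2. It was 5.49 under 3, 6.49 under 4, 9.38 under 5 and 8.75 in the 112 steps under all 6. Steps next to each other share peaks and base composition, so these means describe 1 stretch of DNA and carry no test. Under Ezh2 the mean was 9.57, and under ESC Ring1b it was 6.88. Bases under Ring1b in NSCs and not in ESCs were CpG-poor (2.35 in 26 steps), and those under H3K27me3 in NSCs and not in ESCs held 5.51 (142 steps), against 8.34 where H3K27me3 was in both cell types.

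**Figure D4:**
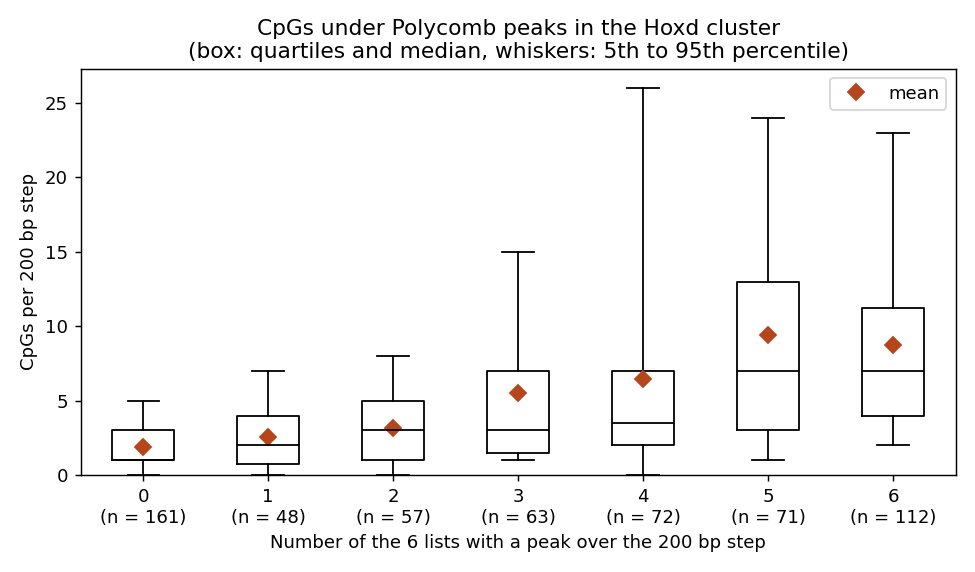
CpGs per 200 bp step of the joined Hoxd windows (vertical axis), by the number of the 6 lists with a peak over the step (horizontal axis, number of steps in brackets), as quartile boxes with whiskers from the 5th to the 95th percentile and means as diamonds. The mean is 1.89 under no list, 9.38 under 5 and 8.75 under all 6.

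In all 6 lists peaks reached past Hoxd13. On the other side the last ESC Ring1b, Ezh2 and H3K27me3 peaks ended within the Hoxd1 body, the last ESC Cbx2 and NSC Ring1b peaks ended before the Hoxd1 window, and the last NSC H3K27me3 peak ended 10400 bp past Hoxd1. The start of Evx2, a homeobox gene read in the opposite direction next to Hoxd13, was in peaks of all 6 lists. Those of Lnp and Mtx2, the next genes on either side, were in none. On the Hoxd13 side the nearest further peak lay 854 to 1375 kb away in the ESC lists, 350 kb in NSC Ring1b and 10.0 kb in NSC H3K27me3. On the Hoxd1 side it lay 1574 to 5684 kb away in the ESC lists, 71.2 kb in NSC Ring1b and 7280 kb in NSC H3K27me3. In all 4 ESC lists the nearest further peak was thus at least 854 kb away. How this compares with the usual spacing of peaks in these lists was not tested.

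Compared with the other 3 Hox clusters, Hoxd had the lowest share under ESC Ring1b and the highest under both NSC lists. ESC Ring1b covered 66.6% of the joined Hoxd windows, against 76.8% (Hoxa), 71.6% (Hoxb) and 68.0% (Hoxc). NSC Ring1b covered 50.9% in Hoxd and 37.4%, 40.0% and 46.8% in the others, and NSC H3K27me3 covered 56.0% against 31.4%, 40.6% and 52.8%. For ESC bases still under the same target in NSCs, Hoxd had 69.7% for Ring1b, with 44.6%, 52.9% and 65.3% in Hoxa, Hoxb and Hoxc, and 91.1% for H3K27me3, with 50.0%, 66.5% and 83.5%. Hoxc was close to Hoxd in each of these values. The NSC to ESC ratio of H3K27me3 bases was also above 1 in Hoxb (1.46) and Hoxc (1.79), and below it in Hoxa (0.593), so the higher NSC coverage is not particular to Hoxd. With 4 clusters and 1 library each, this order has no test.

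**Figure D5:**
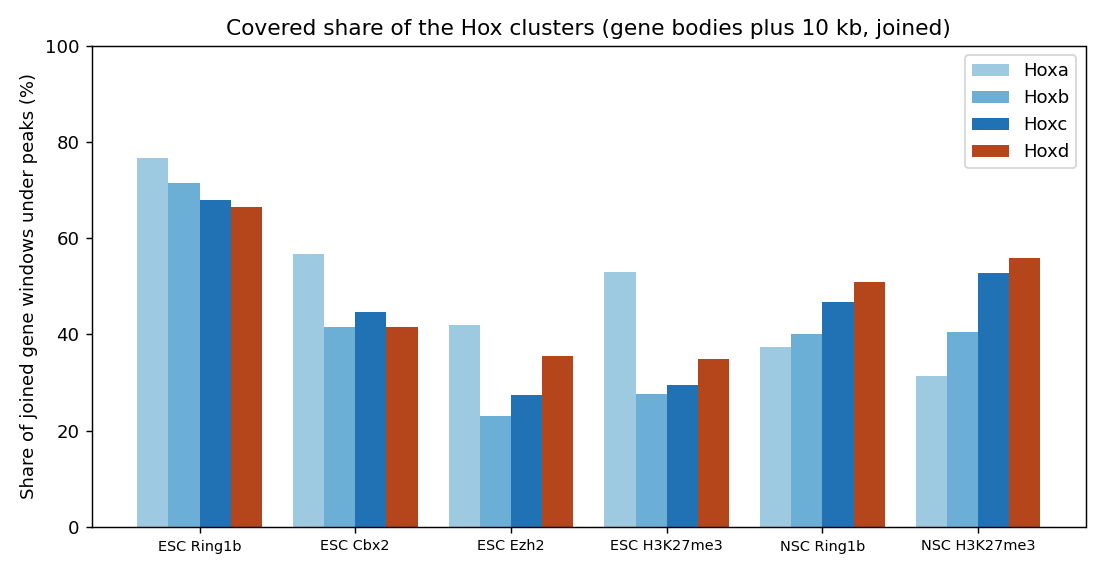
Share of the joined gene windows (bodies plus 10 kb) under peaks (percent, vertical axis from 0) for the 4 Hox clusters in each of the 6 lists (horizontal axis), 1 bar per cluster with no error, as there is 1 library per list. Hoxd (red) is lowest for ESC Ring1b at 66.6% and highest for NSC Ring1b at 50.9% and NSC H3K27me3 at 56.0%.

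Outside the Hox clusters, 59 protein-coding genes had a start site in peaks of all 6 lists, as Hoxd13, Hoxd11, Hoxd10 and Hoxd9 do. Ranked by the lowest covered share over the 6 lists, the most alike were Dlx6 (45.0%), Lbx1 (40.7%), Nkx2-3 (34.8%), Hmx3 (34.6%) and Msx1 (32.4%), all homeobox genes. The same measure was 57.1% for Hoxd11, 56.0% for Hoxd10, 42.0% for Hoxd9 and 40.7% for Hoxd13.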

How the data were processed

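Members, gene lists and comparisons were chosen with earlier results of these data known. The authors deposited 1 list of peaks per library, with the start and end of each peak in bp on mm9 and no other value. Per the methods, tags were mapped with Bowtie (the submitters' processing notes name BWA), counted in windows of 1 kb every 200 bp, set against input with a negative binomial model (its size parameter chosen by looking at the calls), and joined where enriched windows were near each other. Only the methods, and not the labels, state an extra EGS cross-linking step for Ring1b. The 4 inputs, time-ChIP and RNA-seq were not analysed here.

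Groups came from the sample labels. Genes, start sites (the 5′-most annotated) and sequence came from the GENCODE annotation and genome of NCBIM37, which is mm9. Peaks overlapping a gene body plus 10 kb by at least 1 bp were taken. Covered bases were counted in Python 3.11.15 with numpy 2.4.6, and figures were drawn with matplotlib 3.10.9. The counting was checked on simulated data, where 200 of 200 genes were recovered. Backgrounds are the share of all 22350 protein-coding genes called the same way. Depth is unknown, so no interval is given. All 9 members were named, with the neighbours Evx2, Lnp, Mtx2, Mir10b and Haglr, Hox clusters as counts and shares, lists of Hox cofactors and regulators, and the 5 genes outside Hox clusters that are in peaks of all 6 lists and have the highest lowest share. Alternatives were peaks of at least 2 kb, peaks within 3 kb merged, a slack of 1 kb, any annotated start, no flank and 20 kb of flank. RefSeq start sites, placed in mm9 by exact match of promoter sequence (10 of 10), were added after the data were seen. The sequence of the microRNA is RefSeq's, from a table on GRCm38.p6.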

Additional observations from a re-analysis of the deposited data

How the results depend on the processing

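No paired analysis was possible because each cell type and target has 1 library and the labels carry no replicate numbers, so no replicate could be left out either. No value changed direction under any alternative run. With peaks of at least 2 kb only, Ezh2 peaks held 5 start sites, and the covered share was 30.2% for Ezh2 and 50.9% for NSC H3K27me3. With peaks within 3 kb merged, it was 74.7% (ESC Ring1b), 46.1% (Cbx2), 42.1% (Ezh2), 42.3% (ESC H3K27me3) and 60.3% (NSC H3K27me3), and the NSC minus ESC difference for Ring1b was -27800 bp. With gene bodies alone, it was 74.5% (ESC Ring1b), 49.4% (Cbx2), 41.3% (Ezh2) and 41.5% (ESC H3K27me3), and the H3K27me3 difference was 7926 bp. With 20 kb of flank, it was 59.2% (ESC Ring1b), 36.8% (Cbx2), 30.5% (ESC H3K27me3) and 51.6% (NSC H3K27me3). The cause was not tested, except that flanks and merging change the bases counted. With the 2 kb minimum, NSC H3K27me3 peaks held 6 start sites, without Hoxd8 and Hoxd3. Of the 44 values not counted as moved, counts and differences changed by at most 1.5 times and covered shares stayed within the 95% binomial interval over 200 bp steps. That interval treats neighbouring steps as independent, which they are not. It served only as a cut-off for calling a value moved and measures no spread between libraries. RefSeq start sites gave the same states for all 9 members. The lists carry no depth or height, so binding below the threshold of a list is not visible.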

Other observations

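Among 9 genes for Hox cofactors, which bind DNA together with Hox proteins, start sites lay in ESC peaks for 3 (Ring1b: Meis1, Meis2 and Pknox2), 2 (Cbx2), 2 (Ezh2) and 1 (H3K27me3). The shares of all genes were 7.03% (Ring1b), 1.15% (Cbx2), 2.56% (Ezh2) and 4.31% (H3K27me3). None lay in an NSC Ring1b peak (1.74% of all genes) or an NSC H3K27me3 peak (1.77%), which for 9 genes is near those shares. Covered shares of the cofactor windows were at most 13.1% in any list, at Meis1 under ESC Ring1b. Of 5 regulators of Hox expression, Cdx2 and Cyp26a1, which encode a homeobox activator of Hox genes and an enzyme that breaks down retinoic acid, had start sites in ESC Ring1b, Ezh2 and H3K27me3 peaks and in NSC H3K27me3 peaks, and in no NSC Ring1b peak. Cdx2 was also in an ESC Cbx2 peak. The shares of all genes for these lists are those given with the cofactors. The Cdx2 window was 63.5% under ESC Ring1b and 44.6% under NSC H3K27me3.

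Paralogues of Hoxd4 differed in the lists that held their start site. At the 5′-most annotated starts, Hoxc4 was in 0 lists like Hoxd4, Hoxa4 in 2 and Hoxb4 in 3. The second annotated Hoxd4 start was in 3 lists, and other starts of the paralogues are not given here. In group 9, Hoxa9, Hoxc9 and Hoxd9 were in all 6 lists and Hoxb9 in 3.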
